A study of Mus musculus with 6 samples.

Results

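The genes described here are 51 components of BMP and TGF-beta signalling in the embryonic maxillary prominence, chosen by symbol in the GENCODE M21 annotation (GRCm38, the mm10 assembly). They were 51 of the 53801 genes in the count files, and all 51 passed the filter on low counts that left 17514 genes for testing. RNA of E12.5 maxillary prominences, the paired swellings that form the upper jaw and the palatal shelves, was sequenced in 3 wild-type (WT) samples and 3 samples of Wnt1cre; Rosa26Dlx2/- embryos (Dlx2OE), in C57BL/6J-derived mice. In Dlx2OE embryos, a single knocked-in copy of a CAG-LSL-Dlx2-3xFlag cassette at Rosa26 is switched on by Cre under Wnt1 control, which acts in neural crest and the cells derived from it, whereas surface epithelium, endothelium and blood are not of neural crest origin. The Dlx2 allele and the Cre allele came together in every Dlx2OE embryo, so their effects cannot be told apart. The sources differ on the littermates used for the 6 samples, 7 in the labels and 6 in the methods, so whether a sample held tissue of more than 1 embryo is not known. The p-values measure the spread between these samples.

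BMPs, activins, GDF11 and TGF-betas are secreted dimers of one superfamily. They bring together type I and type II receptor kinases, which phosphorylate Smad proteins that enter the nucleus with Smad4. BMP-type signals run mainly through Smad1, Smad5 and Smad9, and TGF-beta and activin signals through Smad2 and Smad3, while antagonists outside the cell and inhibitory Smads inside it hold the signal down. In the developing upper jaw, BMPs are known for patterning and growth of the facial prominences, and TGF-betas for growth and fusion of the palatal shelves.

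Of the 51 genes, 4 were higher and 3 were lower in Dlx2OE at an adjusted p under 0.05 (edgeR's quasi-likelihood test, Benjamini-Hochberg adjustment over all genes tested). The higher genes were Grem1, a secreted BMP antagonist, Tgfbr3, the coreceptor betaglycan, Acvr2b, a type II activin receptor, and Smad7, an inhibitory Smad. The lower genes were the ligands Tgfb2, Tgfb3 and Inhba. The 7 called genes were 13.7% of the members, beside 6.45% of all genes tested. The members were chosen with earlier results of these data known, so these shares are a description and not a test. By direction, 2.99% of all genes were called higher and 3.46% lower. Grem1 was the only called member beyond a log2 fold change of 1, a size reached by 1.5% of all genes upward and 1.62% downward. The median log2 fold change of the members was -0.03, beside 0.00275 for all genes tested. The second test, DESeq2, called 4 members higher and 7 lower, with backgrounds of 7.36% and 8.93%. Its additional genes, all lower, were Chrdl1, Tgfbr2, Id1 and Gdf10. In bulk tissue, fewer cells of a type and less RNA per cell cannot be told apart.

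**Figure D1:**
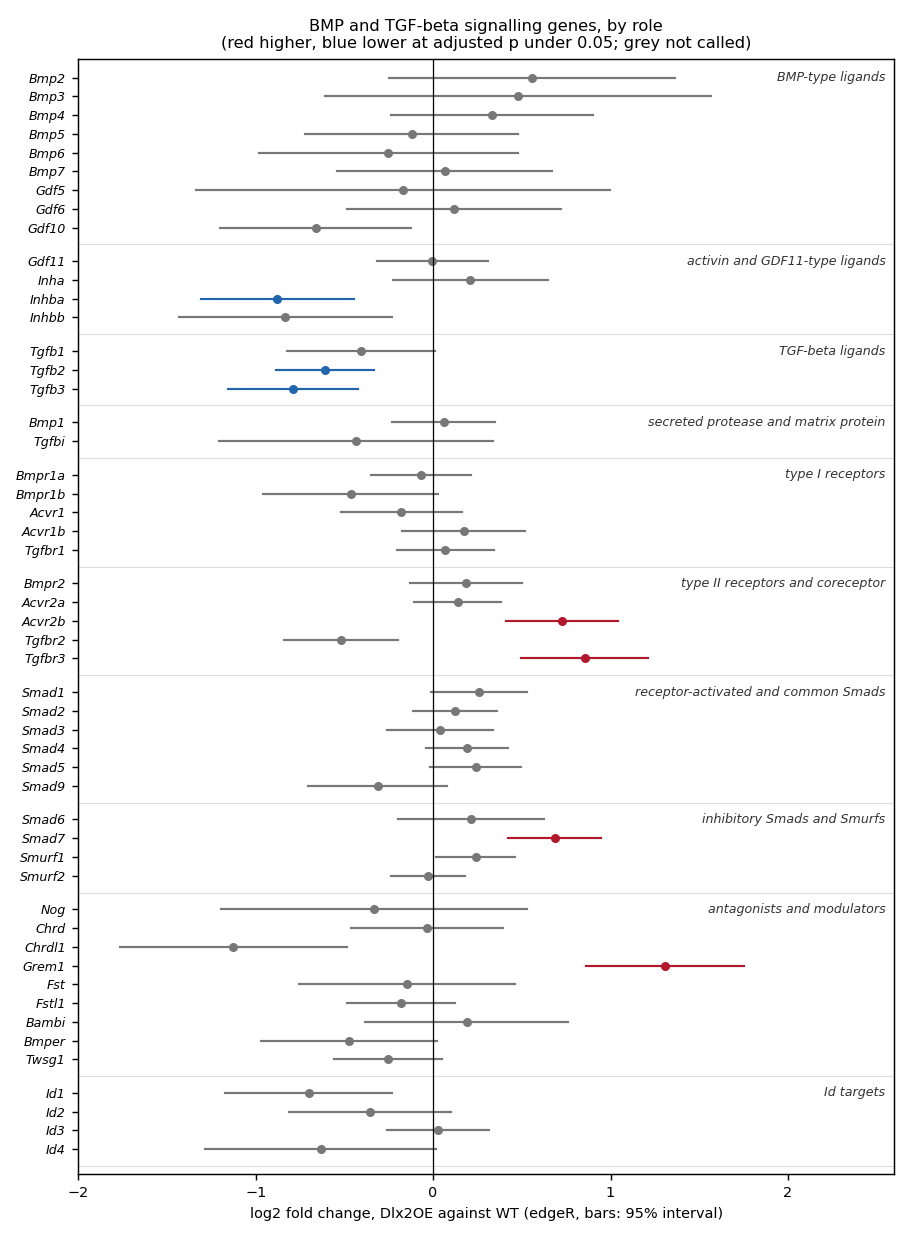
Log2 fold change of each of the 51 members in Dlx2OE against WT from edgeR, with 95% intervals, grouped by role on the vertical axis. The 4 called higher (red) belong to the receptors, the inhibitory Smads and the antagonists, and the 3 called lower (blue) are ligands.

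Libraries held 26155500 to 31308813 counts on genes. Dlx2, the gene overexpressed, stood at 42.9, 35.0 and 45.2 TMM-scaled CPM (the count of a gene relative to the library size, which edgeR's TMM method adjusts) in WT 1 to 3 and at 119, 131 and 123 CPM in Dlx2OE 1 to 3, a 3.03-fold difference (log2 1.60 ± 0.12 SE, edgeR adjusted p = 0.00241), so the libraries matched their labels. Reads outside annotated genes made up 5.03% to 5.43% in WT but 5.75%, 7.81% and 14.7% in Dlx2OE 1 to 3. Summed over 10 genes each, mesenchyme markers were at 3449 to 3796 CPM in WT and 3893 to 4120 CPM in Dlx2OE, with 3 of 10 called higher and none lower. Surface epithelium markers reached 1882 CPM in Dlx2OE 1 but 594.5 and 610.4 CPM in Dlx2OE 2 and 3, against 760.5 to 1375 CPM in WT, with 2 of 10 lower. Neuron markers were at 109.5 to 396.5 CPM in WT and at 220.4, 757.4 and 1707 CPM in Dlx2OE 1 to 3, with 0 of 10 called. Blood markers were at 3326 to 4442 CPM in WT and 2006 to 2597 CPM in Dlx2OE, macrophage markers at 100.9 to 113.6 and 66.5 to 72.7 CPM (each 3 of 10 lower), and endothelial markers at 352.9 to 521.4 and 248.1 to 389.8 CPM (1 of 10 lower). The remaining lists (skeletal muscle, glia, cartilage and bone, mandible) overlapped between the groups, with 1 cartilage and bone gene lower, 1 mandible gene higher and Foxd3, a glial list gene, at 0 in all samples. The part of these cell types in the results below was not tested.

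All 3 TGF-beta ligands were lower in every Dlx2OE sample than in any WT sample, as were 17.3% of all genes tested. Tgfb2, which signals with the help of betaglycan and is needed for normal heart and craniofacial development, was at 85.6, 87.6 and 110 CPM in WT and 59.9, 65.9 and 59.7 CPM in Dlx2OE. The Dlx2OE samples sat close together, and the fall was 1.52-fold (log2 -0.61 ± 0.12 SE, edgeR adjusted p = 0.0309). Tgfb3, the ligand known for its role in palatal fusion, was at 30.8, 37.4 and 45.7 CPM in WT and 19.8, 22.9 and 23.3 CPM in Dlx2OE. That difference was 1.73-fold (log2 -0.79 ± 0.16 SE, edgeR adjusted p = 0.0332). An antisense gene, Gm48008, overlaps 12.4% of the exon length of Tgfb3. The kit does not mark strand and the counting leaves out reads that overlap 2 genes, so reads there may be missing from the count. Tgfb1, the form best known from blood cells and endothelium, was at 17.7, 16.6 and 19.9 CPM in WT and 16.1, 10.5 and 14.3 CPM in Dlx2OE and did not pass the test (log2 -0.41 ± 0.18 SE, edgeR adjusted p = 0.178). The call of Tgfb2 was lost without WT 1, WT 2, Dlx2OE 2 or Dlx2OE 3 (adjusted p of 0.0640, 0.0918, 0.0816 and 0.0972), and that of Tgfb3 without WT 2, Dlx2OE 2 or Dlx2OE 3 (0.124, 0.0929 and 0.0765). With library size alone in place of TMM scaling, Tgfb2 and Tgfb3 were at adjusted p of 0.0602 and 0.0573.

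Expressed per kilobase of exon, so that genes can be compared, the TGF-beta ligands together stood at 31.1 ± 4.70 CPM per kb in WT and 19.9 ± 0.446 in Dlx2OE (SD, n = 3). The groups did not overlap. The exact two-sided permutation p was 0.1, the smallest that 3 against 3 samples allow (0.286 after adjustment over the 10 roles compared). Since none of the ligands overlapped on its own, both outcomes were fixed in advance and add no further evidence. Tgfb2 made up the most of this level, at 16.3 ± 2.32 CPM per kb in WT, followed by Tgfb3 at 11.2 ± 2.20 and Tgfb1 at 3.58 ± 0.325.

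Among the activin and GDF11-type ligands, both activin beta subunits were lower in each Dlx2OE sample than in all WT samples. That held for 17.3% of all genes tested, and of these subunits only Inhba passed the test. Inhba encodes the subunit of activin A, a ligand for Acvr2a and Acvr2b that is needed for normal palate and tooth development. It was measured at 59.0, 66.6 and 76.1 CPM in WT samples and at 46.5, 28.1 and 35.2 CPM in Dlx2OE samples. Dlx2OE 1 was the highest of its group, and the difference was 1.84-fold (log2 -0.88 ± 0.19 SE, edgeR adjusted p = 0.0371). The call did not hold when WT 1, WT 2, WT 3, Dlx2OE 2 or Dlx2OE 3 was left out (adjusted p of 0.0814, 0.136, 0.0586, 0.0945 and 0.104), with library size alone (0.0503) or with length and GC correction (0.0552), whereas without Dlx2OE 1 the log2 fold change was -1.10 at an adjusted p of 0.0108. Inhbb, the subunit of activin B, was the lowest of the 51 genes per kilobase of exon. It was at 2.39, 1.89 and 2.66 CPM in WT and 1.45, 1.11 and 1.33 CPM in Dlx2OE (log2 -0.83 ± 0.26 SE, edgeR adjusted p = 0.0868). Gdf11 and Inha (inhibin alpha, listed in this role though no activin subunit) overlapped between the groups, with log2 fold changes of -0.0056 and 0.21.

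The stretch before the Inhba start is shown because, of the 4 called members with an entry in the promoter table (Inhba, Tgfb2, Acvr2b and Grem1), it alone matched the homeodomain site TAATTG, the class of site that Dlx proteins bind in vitro. The sequence is RefSeq's for GRCm38.p6, chr13:16011601-16011850, the 250 bases before the start on the plus strand with no annotated exon base, and capitals mark TAATTG or its reverse complement CAATTA.

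Inhba: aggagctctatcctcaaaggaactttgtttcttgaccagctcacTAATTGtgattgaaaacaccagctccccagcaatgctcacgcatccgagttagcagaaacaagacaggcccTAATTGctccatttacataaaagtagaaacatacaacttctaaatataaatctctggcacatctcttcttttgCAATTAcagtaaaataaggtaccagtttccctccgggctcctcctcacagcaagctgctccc

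The window held 3 such matches at a GC content of 43.2%. Of the 51 members, 35 had an entry in the promoter table, with 40 windows, and 2 of the 40 windows (Inhba and the receptor gene Bmpr1b) held TAATTG on either strand, which is 5% beside 7.17% of all 32851 windows of the same length. The related core TAATTA was in 0 of the 40 windows and in 4.84% of all windows. A match is a description of letters and not of binding. The promoters of Tgfb3, Tgfbr3, Smad7, Chrdl1 and Id1 were not analysed here.

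None of the 9 BMP-type ligands was called, and the levels of several of them spread widely among the Dlx2OE samples. Bmp7, the most abundant of them, was at 60.7, 77.6 and 84.4 CPM in WT and 114, 58.2 and 60.6 CPM in Dlx2OE (log2 0.06 ± 0.26 SE, edgeR adjusted p = 0.883). Bmp4, needed for lip and palate formation, was at 30.2, 28.7 and 33.6 CPM in WT and 53.2, 38.6 and 24.6 CPM in Dlx2OE. Bmp2, another ligand of the facial mesenchyme and epithelium, was at 14.5, 13.4 and 21.1 CPM in WT and 38.3, 14.8 and 18.9 CPM in Dlx2OE. In all 3 genes, Dlx2OE 1 was the highest of the 6 samples. Without Dlx2OE 1 the log2 fold changes of Bmp7, Bmp4 and Bmp2 were -0.33, 0.027 and 0.036, and that of Bmp7 was also negative without WT 1 (-0.068). Gdf10, also called BMP3b, was the one BMP-type ligand whose groups did not overlap, at 33.8, 31.7 and 49.97 CPM in WT and 31.2, 18.4 and 23.4 CPM in Dlx2OE (log2 -0.66 ± 0.23 SE, edgeR adjusted p = 0.113). Bmp3, Bmp5, Bmp6, Gdf5 and Gdf6 had log2 fold changes between -0.25 and 0.48 with no call, and their intervals reached as far as 1.17 on either side of the estimate, for Gdf5. Exons of other genes overlap 46.7% of Bmp5 and 40.3% of Gdf5, which makes the counts of both uncertain.

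Per kilobase of exon, the BMP-type ligands summed to 46.6, 51.1 and 62.6 CPM per kb in WT and 82.5, 46.8 and 44.0 in Dlx2OE. Apart from Dlx2OE 1, the samples lay in one range. Bmp7 and Bmp4 made up most of this level, with 34.6% ± 2.85 and 25.9% ± 2.56 of it in WT and 33.2% ± 1.96 and 30.1% ± 6.04 in Dlx2OE (SD, n = 3). Gdf10 held a share of 13.9%, 11.9% and 15.3% in the WT samples and of 7.25%, 7.56% and 10.2% in the Dlx2OE samples. These groups did not overlap, at an exact two-sided permutation p of 0.1 (0.771 after adjustment over the 9 ligands).

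**Figure D2:**
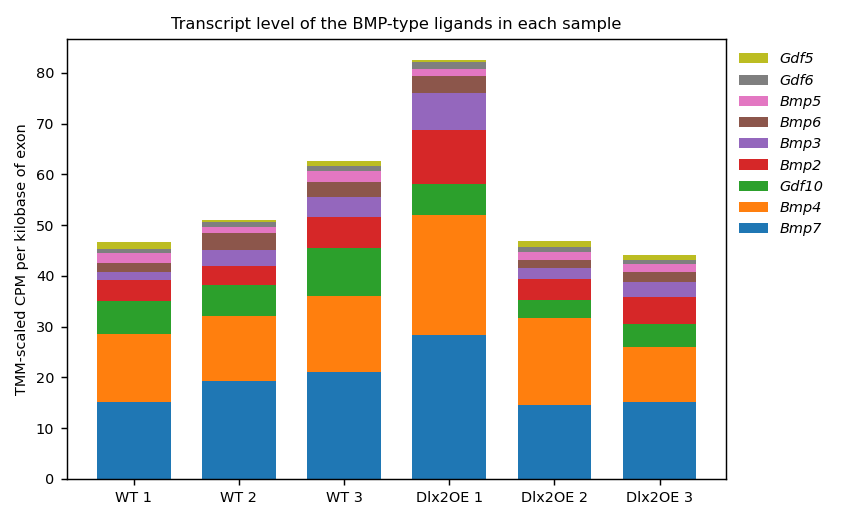
Stacked level of the 9 BMP-type ligands in each sample, in TMM-scaled CPM per kilobase of exon on the vertical axis. Dlx2OE 1 reached 82.5, above the other 5 samples at 44.0 to 62.6, and the band of Gdf10 was a smaller share in the Dlx2OE samples.

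The departure of Dlx2OE 1 was not limited to ligands. In 8 of the 51 genes it was over 1.5 times the mean of Dlx2OE 2 and 3, and in 4 it was under that mean by more than 1.5 times. The 8 were Bmp3 (2.87 times), Nog (2.47), Bmp2 (2.27), Bmp7 (1.92), Bmp6 (1.78), Bmp4 (1.68), Bambi (1.65) and Fst (1.53), that is, 5 BMP-type ligands together with the antagonists noggin and follistatin and the decoy receptor Bambi. The 4 were Gdf5, Tgfbi, Chrdl1 and Bmpr1b, with the other 2 samples 3.20, 2.34, 2.11 and 1.62 times higher. The share of all genes beyond the same cut was not computed, so these counts cannot be called particular to the members. Over all genes tested, Dlx2OE 1 also stood apart on the second principal component, an axis holding 23.3% of the variance between samples. It was at -64.4 there, against 2.86 to 27.1 in the other samples. The surface epithelium markers summed to 1882 CPM in this sample against 594.5 and 610.4 CPM in Dlx2OE 2 and 3. With all samples, 4 of these 10 markers had a positive and 6 a negative log2 fold change, and 2 were called lower. Their part in the departure was not tested. Across all 51 members the median coefficient of variation was 14.2% among WT and 13.7% among Dlx2OE samples. Without Dlx2OE 1, 4 members were still called higher and 7 lower, with Nog, Gdf10, Chrdl1 and Id1 joining and adjusted p of 0.0455, 0.0408, 0.0183 and 0.0302. Calls over all genes also grew in that fit, from 1130 to 1944, or 10.7% of the genes tested in it.

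No type I receptor was called, while 2 of the 5 type II receptors and coreceptors were called higher, beside 2.99% of all genes tested. Acvr2b, the type IIB receptor for activins, GDF11 and several BMPs, was at 23.8, 24.0 and 29.7 CPM in WT and 38.1, 41.8 and 48.2 CPM in Dlx2OE. All Dlx2OE samples were above all WT samples, by 1.65-fold (log2 0.72 ± 0.14 SE, edgeR adjusted p = 0.0280). Its paralogue Acvr2a stood at 65.6, 65.7 and 79.6 CPM in WT and 81.4, 74.6 and 76.1 CPM in Dlx2OE, with no call (log2 0.14 ± 0.11 SE, edgeR adjusted p = 0.412). Tgfbr3, which presents TGF-beta2 to its receptors and also binds inhibin, was at 31.8, 29.8 and 34.7 CPM in WT and 72.1, 49.9 and 52.1 CPM in Dlx2OE. That was a 1.81-fold rise (log2 0.85 ± 0.15 SE, edgeR adjusted p = 0.0251), with a log2 fold change of 0.66 when the highest sample, Dlx2OE 1, was left out. Tgfbr2, the type II kinase that all TGF-betas need, lay in the other direction, at 58.0, 63.8 and 80.4 CPM in WT and 49.1, 42.3 and 49.7 CPM in Dlx2OE. Its groups did not overlap, but it missed the threshold in edgeR (log2 -0.52 ± 0.14 SE, adjusted p = 0.0618) and passed it in DESeq2 (adjusted p = 0.0163). The call of Acvr2b was lost without WT 1, WT 2, Dlx2OE 2 or Dlx2OE 3 (adjusted p of 0.0974, 0.129, 0.0849 and 0.0812), and that of Tgfbr3 without WT 1 or WT 2 (0.0894 and 0.123).

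Among type I receptors, Bmpr1a, the main BMP kinase receptor of the facial mesenchyme, was the most abundant, at 335, 271 and 271 CPM in WT and 281, 294 and 261 CPM in Dlx2OE. The interval of its log2 fold change ran from -0.35 to 0.21. Bmpr1b, a related receptor prominent in cartilage condensations, was at 20.9, 21.5 and 27.7 CPM in WT and 11.98, 19.4 and 19.5 CPM in Dlx2OE (log2 -0.46 ± 0.21 SE, edgeR adjusted p = 0.190). Its groups did not overlap, by a narrow gap and with Dlx2OE 1 the lowest. Acvr1, Acvr1b, Tgfbr1 and the type II receptor Bmpr2 overlapped between the groups, with log2 fold changes of -0.18 to 0.19. As a sum, type I receptors stood at 102 ± 5.36 CPM per kb in WT and 101 ± 2.67 in Dlx2OE.

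Of the intracellular members, only Smad7 was called. Smad7, which blocks type I receptors and recruits the Smurf ubiquitin ligases to them, was at 25.4, 24.5 and 25.6 CPM in WT and 45.1, 40.3 and 35.8 CPM in Dlx2OE. The WT samples were nearly equal, and each Dlx2OE sample was higher, by 1.61-fold on average (log2 0.68 ± 0.11 SE, edgeR adjusted p = 0.0203). The call was lost without WT 1, WT 2 or Dlx2OE 2 (adjusted p of 0.0753, 0.101 and 0.0731). Smad6, the inhibitory Smad that acts chiefly on BMP signals, overlapped between the groups (log2 0.22 ± 0.18 SE). Smurf1, a ubiquitin ligase for BMP Smads, was higher in every Dlx2OE sample by a small margin, at 58.2, 57.2 and 66.8 CPM in WT and 72.3, 69.2 and 73.6 CPM in Dlx2OE (log2 0.24 ± 0.10 SE, edgeR adjusted p = 0.146). Smurf2 was at 110 ± 7.26 CPM in WT and 107 ± 1.43 CPM in Dlx2OE, with an interval of -0.24 to 0.18 for the log2 fold change. Summed per kilobase of exon, these 4 inhibitors were at 41.3, 38.1 and 43.9 CPM per kb in WT and 50.3, 45.8 and 45.3 in Dlx2OE, without overlap (exact two-sided permutation p = 0.1, 0.286 after adjustment). As TPM, a level per length scaled to a fixed total, the same sum overlapped (119, 103 and 150 in WT, and 179, 167 and 96.2 in Dlx2OE), and the short RNA gene Gm23935 took 41.6% of the TPM total in Dlx2OE 3.

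The receptor-activated Smads and Smad4 gave no call in 6 genes. Smad5, a BMP Smad and the most abundant of them, was at 267, 222 and 261 CPM in WT and 302, 300 and 282 CPM in Dlx2OE, so that the groups did not overlap (log2 0.24 ± 0.11 SE, edgeR adjusted p = 0.189). Smad1, Smad2, Smad3 and Smad4 had log2 fold changes of 0.04 to 0.26, and Smad9 one of -0.31. The widest interval of the 6, that of Smad9, reached 0.39 on either side. The intervals are not adjusted for the number of genes tested, so for Smad9 even differences beyond that size could go uncalled.

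**Figure D3:**
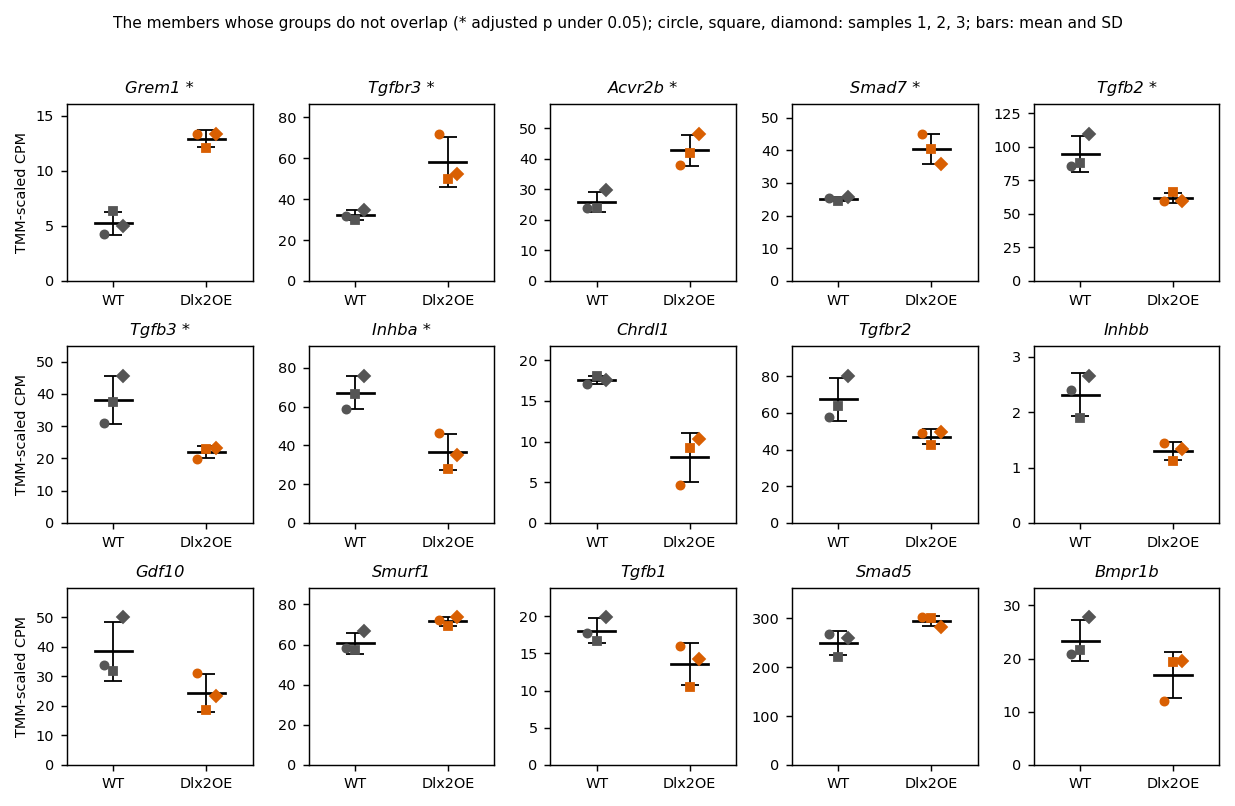
TMM-scaled CPM (vertical axis) of the 15 members whose WT and Dlx2OE samples did not overlap, 1 panel a gene, with 1 point per sample and the mean with SD. Asterisks mark the 7 genes called by edgeR, 4 higher and 3 lower, and the other 8 panels show 2 genes higher and 6 lower in Dlx2OE.

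The extracellular antagonists held both the largest positive and the largest negative log2 fold change among the 51 genes. Grem1, a secreted antagonist of BMP2 and BMP4, was at 4.31, 6.34 and 5.00 CPM in WT and 13.4, 12.04 and 13.3 CPM in Dlx2OE. The Dlx2OE samples were alike and all above WT, by 2.47-fold (log2 1.31 ± 0.19 SE, edgeR adjusted p = 0.0145). Of the 6 fits with a sample left out, the call was lost in that without WT 1 (edgeR adjusted p = 0.0540). Chrdl1, an antagonist related to chordin, was at 17.0, 18.1 and 17.5 CPM in WT and 4.62, 9.23 and 10.3 CPM in Dlx2OE. Dlx2OE 1 was the lowest, and the 2.18-fold difference lay just outside the edgeR threshold (log2 -1.13 ± 0.28 SE, adjusted p = 0.0519) and inside that of DESeq2 (adjusted p = 0.000924). Grem1 is annotated on chromosome 2 (113746164 to 113758646, minus strand) and Chrdl1 on chromosome X (143285674 to 143394262, minus strand). Fstl1, a secreted glycoprotein that binds BMPs and the most abundant of the 51 genes per length, was at 857, 759 and 824 CPM in WT and 802, 672 and 680 CPM in Dlx2OE (log2 -0.18 ± 0.13 SE, edgeR adjusted p = 0.388). Noggin (Nog) was at 6.39, 8.33 and 8.60 CPM in WT and 10.2, 3.66 and 4.62 CPM in Dlx2OE, where 1 sample was above and 2 were below all WT samples. Chrd, Fst, Bambi, Bmper and Twsg1 also overlapped, with log2 fold changes of -0.48 to 0.19.

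The stretch before Grem1 is shown because Grem1 had the largest positive log2 fold change of the members and its window holds the GC-rich Smad site GGCGCC, in capitals. It is RefSeq's sequence for GRCm38.p6, chr2:113758649-113758898, on the minus strand and written 5′ to 3′ in the direction of the gene, with no annotated exon base.

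Grem1: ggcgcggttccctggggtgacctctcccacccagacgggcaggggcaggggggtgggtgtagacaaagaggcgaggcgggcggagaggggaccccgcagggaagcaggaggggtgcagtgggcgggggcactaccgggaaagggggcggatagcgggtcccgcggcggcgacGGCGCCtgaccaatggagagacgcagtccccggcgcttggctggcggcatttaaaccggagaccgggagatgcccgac

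GGCGCC, which is its own reverse complement, was in 11 of the 40 member windows (27.5%) and in 9.59% of all windows. The windows were not matched for GC content, which was 72.0% for Grem1. The other windows with the site belonged to Bmpr1a, Bmpr2, Chrd, Id2, Id4, Smad5, Smad9, Smurf2, Tgfbi and Tgfbr1, of which none was called. The Smad palindrome GTCTAGAC was in 0 of the 40 windows and in 0.167% of all windows.

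The Id genes encode inhibitors of basic helix-loop-helix factors and are direct transcriptional targets of BMP Smads in many cells. None of the 4 was called. Id1 was at 155, 164 and 108 CPM in WT and 109, 83.3 and 70.3 CPM in Dlx2OE, where WT 3 lay just under Dlx2OE 1 (log2 -0.70 ± 0.20 SE, edgeR adjusted p = 0.0746, DESeq2 adjusted p = 0.00973). Id2 and Id4 had log2 fold changes of -0.36 and -0.63 with overlapping samples, and Id3 was at 173 ± 7.76 CPM in WT and 176 ± 26.6 CPM in Dlx2OE. The secreted matrix protein Tgfbi, named for its induction by TGF-beta, was at 171, 96.4 and 152 CPM in WT and 54.7, 136 and 120 CPM in Dlx2OE, lowest in Dlx2OE 1 and overlapping (log2 -0.43 ± 0.34 SE, edgeR adjusted p = 0.411). The protease Bmp1, which trims procollagen and chordin, was at 174 ± 20.4 CPM in WT and 181 ± 18.1 CPM in Dlx2OE.

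Seen together, 15 of the 51 members did not overlap between the groups, 6 higher and 9 lower, which is 11.8% and 17.6% of them beside 16.7% and 17.3% of all genes tested. Levels spanned a wide range. Fstl1 was at 165 ± 10.2 CPM per kb in WT, and Id1, Id3 and Id2 followed at 123 ± 26.1, 96.7 ± 4.33 and 84.2 ± 21.8. At the low end, Inhbb was at 0.544 ± 0.0919 CPM per kb. In WT, 20 members were at or above 10 CPM per kb and 3 (Gdf5, Gdf6 and Inhbb) were under 1. By rank over the 51, Tgfb3 went from 19 in WT to 32 in Dlx2OE and Inhba from 20 to 34, whereas Acvr2b went from 32 to 19 and Tgfbr3 from 36 to 26.

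**Figure D4:**
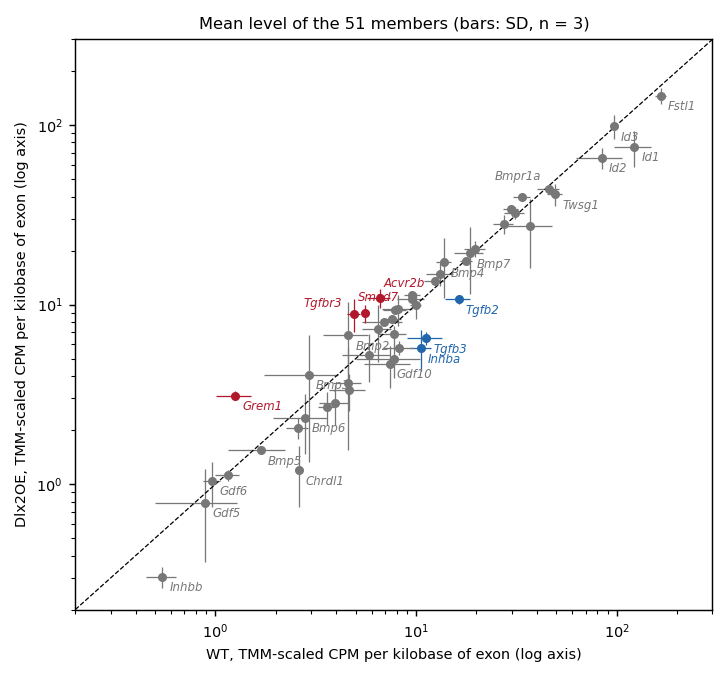
Mean level of each of the 51 members in WT (horizontal axis) and Dlx2OE (vertical axis), in TMM-scaled CPM per kilobase of exon on log axes, with SD bars (n = 3) and a dashed line of equality. Red points (called higher) lie above the line and blue points (called lower) below it, with Fstl1 highest and Inhbb lowest.

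Signs were kept where calls were not. The groups of all 7 called members did not overlap, so a sign could hardly turn with a sample left out, and its keeping is no test. With each of the 6 samples left out in turn, the sign of all 7 called members was kept in every fit, but their adjusted p was under 0.05 in 5 of the 6 fits for Grem1, 4 for Tgfbr3, 3 each for Smad7 and Tgfb3, 2 each for Acvr2b and Tgfb2 and 1 for Inhba. Over the same 6 fits, 0 to 4 members were called higher and 0 to 7 lower, while calls over all genes ran from 79 to 2091.

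**Figure D5:**
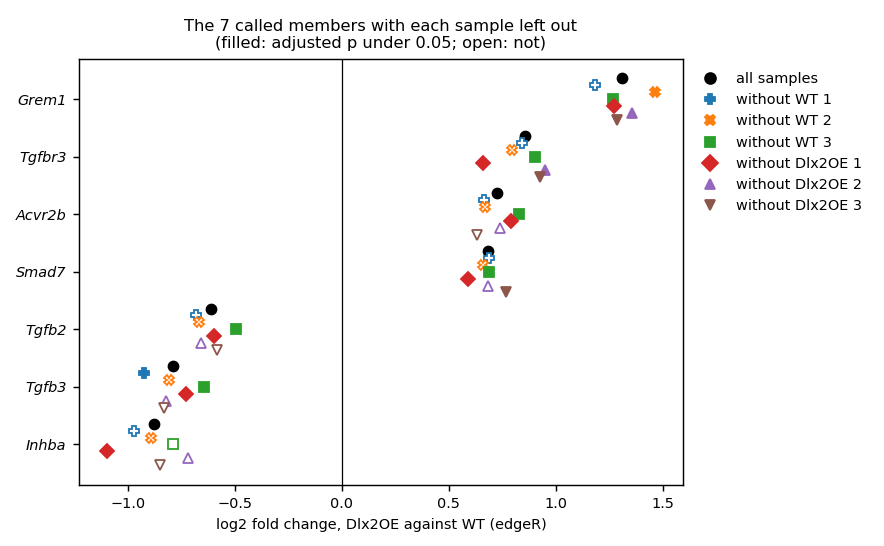
Log2 fold change (horizontal axis) of the 7 called members with all samples and with each sample left out, from edgeR, with filled symbols at an adjusted p under 0.05. Every symbol stays on its side of 0, which groups without overlap nearly fix in advance. Grem1 has 5 of 6 filled and Inhba 1 of 6.

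The pathway reaches beyond these members, and 96 further genes of it (other ligands and receptors, latency and activation proteins, other antagonists, intracellular regulators and response genes) were listed, of which 80 could be tested. The test called 7 of the 80 higher and 5 lower, together 15% of them beside the 6.45% of all genes tested (2.99% higher and 3.46% lower). This list, too, was chosen with earlier results of these data known, so its share is a description and not a test. Postn, a matrix protein of TGF-beta-responsive mesenchyme, was at 803, 1206 and 785 CPM in WT and 365, 369 and 354 CPM in Dlx2OE (log2 -1.36 ± 0.19 SE, edgeR adjusted p = 0.0116). Ccn2, a classical TGF-beta target also known as Ctgf, was at 12.5, 12.3 and 15.3 CPM in WT and 4.99, 6.02 and 6.17 CPM in Dlx2OE (log2 -1.22 ± 0.18 SE, edgeR adjusted p = 0.0136), with 23.2% of its exon length overlapped by Gm15270. The homeobox gene Msx2, a BMP response gene of the face, lay the other way, at 5.84, 8.46 and 9.94 CPM in WT and 35.9, 24.4 and 18.1 CPM in Dlx2OE (log2 1.69 ± 0.29 SE, edgeR adjusted p = 0.0211). The study also describes Msx2 as a known target of Dlx2 itself, and which of these links its level followed was not tested. The response genes thus moved both ways, with 2 of the 20 tested higher and 3 lower (25% called, beside the same 6.45%). Kcp, a secreted chordin-like protein, rose (log2 1.13 ± 0.17 SE, edgeR adjusted p = 0.0152), as did Hipk2, a nuclear kinase (log2 1.01 ± 0.19 SE, adjusted p = 0.0291), whereas Vwc2, a secreted BMP-binding protein, fell from 2.90 to 7.10 CPM in WT to 1.22 to 1.24 CPM (log2 -2.13 ± 0.35 SE, adjusted p = 0.0197). The others called beyond a log2 fold change of 1 were Tll1 and Nbl1, higher, and Pcsk6, lower. Tbx2 and Thbs1 (higher) and Klf10 (lower), named after their values were seen, were called below that size.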

How the data were processed

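RNA of E12.5 maxillary prominences was sequenced as 150 bp pairs in 3 WT and 3 Dlx2OE samples, grouped by the sample labels. Per the labels and methods, the authors mapped reads to mm10 with STAR 2.7.3a, counted them per gene with HTSeq 0.12.4 in union mode and deposited raw counts without normalization. The annotation release and strand setting are not given in the sources used here. The library kit does not mark strand, and union mode leaves out reads that overlap 2 genes. Each file ends with 5 summary lines, which stayed out of library sizes and tests (reads outside genes were 5.03% to 14.7%).

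Counts were tested with edgeR 4.0.16 (R 4.3.3), using filterByExpr with a minimum count of 10, TMM factors and the quasi-likelihood test on genotype with Benjamini-Hochberg adjustment over 17514 genes, at a threshold of 0.05. DESeq2 1.42.0, the tool of the study's methods, was an alternative, as were other scalings, filters, a length and GC correction, the replicate number as a block, and each sample left out. The members and gene lists were chosen with earlier results of these data known. Members called, members without overlap and the most abundant of each role were named with values. Errors are SD over 3 samples or SE of the log2 fold change, with intervals at 95%. The floor of 3 counts was 0.0955 to 0.111 CPM, and floors cover counting error only. CPM per kilobase replaced TPM as the printed level after the data were seen, since Gm23935, a 57-base gene, took 1.05% to 41.6% of the TPM total. Shares of ligands are the same on both scales. Exact permutation tests used SciPy 1.17.1. The fits were also run on simulated counts, drawn independently for each sample with none set apart. That run is no check on a sample that departs across many genes, as Dlx2OE 1 did, and its outcome is not reported here.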

Additional observations from a re-analysis of the deposited data

Results flagged for a closer look

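Reads assigned to no annotated gene, which enter no comparison above, made up 14.7% of all counts in the file of Dlx2OE 3, against 5.03% to 5.43% in the WT samples. They were listed because they exceed the control level in data outside the gene counts. Dlx2OE 1 and 2 were at 5.75% and 7.81%. Without Dlx2OE 3, Grem1, Tgfbr3 and Smad7 kept an adjusted p under 0.05 in edgeR (0.0415, 0.0465 and 0.0294), and no member was called lower (Tgfb3 0.0765, Tgfb2 0.0972 and Inhba 0.104). Calls over all genes also fell in that fit, to 315 of 17902 (1.76%) from 1130 (6.45%) with all samples. The part of these reads in the results was not tested.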

How the results depend on the processing

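Against 4 members higher and 3 lower among 1130 calls over all genes, DESeq2 gave 7 lower and 2630 calls, no filter on low counts 7 lower and 2044 calls, library size alone 0 lower, and calls beyond a log2 fold change of 1 left 1 member higher, 0 lower and 546 genes. Length and GC correction with the replicate block gave 0 higher and 0 lower among 134 calls, where the adjusted p of the 7 genes were 0.0553 to 0.103. For the other pathway genes, 7 higher and 5 lower in the main test, the counts were 11 and 8 with no filter, 10 lower with DESeq2, 9 lower with length and GC correction, and 2 and 0 with that correction and the block. Leaving out each sample in turn gave 79 to 2091 calls over all genes, 0 to 4 members higher, 0 to 7 lower, and 0 to 9 higher and 0 to 8 lower other pathway genes. The causes were not tested. Signs turned in at least 1 fit for 16 of the 51 members, none of them called (15 with a sample left out, and Bmpr2 with length and GC correction). Of the genes named with full values these were Bmp7, Bmpr1a and Smurf2. For the 7 called members, whose groups did not overlap, a turn with a sample left out was hardly possible. The log2 fold change of Bmp7 was -0.00012 with the replicate block, -0.0033 with correction and block, and -0.33 to 0.23 with a sample left out (negative without WT 1 or Dlx2OE 1). Those of Bmpr1a and Smurf2 were 0.0018 and 0.038 with library size alone, and -0.13 to 0.032 and -0.088 to 0.0083 with a sample left out (positive without WT 1). Same-numbered samples deviated with correlations of -0.0718, -0.211 and 0.0731, so the numbers were not taken to pair samples. The replicate block gave 961 calls over all genes, 4 members higher and 3 lower, with Inhba lost (adjusted p = 0.0519) and Id1 gained.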
